A study of Rattus norvegicus with 9 samples.

Results

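Alpha and delta cell identity genes are genes other than the hormone genes by which the glucagon, somatostatin and pancreatic polypeptide (PP) cells of the islet are told apart from beta cells. The genes described here are a listed set of 7, Irx1, Irx2, Pou3f4, Slc38a5, Dpp4, Hhex and Peg3, and were taken by name. A probe set that the platform annotation gives to a single gene was found for 6 of the 7 genes, among 14217 genes with such a probe set, and the 6 genes had 8 probe sets. The annotation used here, which does not list 9780 of the probe sets, gives no single-gene probe set to Peg3, a paternally expressed imprinted gene for a zinc finger protein, so no value is given for it.

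RNA of pancreatic islets was measured on Affymetrix Rat Genome 230 2.0 arrays in 5 samples from obese Wistar rats fed a high-caloric cafeteria diet and in 4 from lean Wistar rats fed standard chow, with 1 array per sample and a diet period of 30 days. A cafeteria diet offers palatable, energy-dense human foods. All islets were freed with collagenase and their RNA was extracted with Trizol, per the labels. The sources used here do not give sex, age or feeding state. They also do not say whether 1 sample pools several rats, so the p-values reflect sample-to-sample spread, which may be partly technical.

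Alpha cells release glucagon, which raises blood glucose, and delta cells release somatostatin, which restrains both alpha and beta cells. Each type is kept by its own transcription factors. In mice Irx1, Irx2 and Pou3f4 (Brn4) are expressed in alpha cells and Hhex is needed to maintain delta cells. Slc38a5 can carry glutamine and other neutral amino acids into mouse alpha cells. Dpp4 is the membrane protease that inactivates incretin hormones and is found on alpha cells in human islets. Which cells gave the Slc38a5 and Dpp4 signals in these bulk rat islet samples was not tested.

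The sequences 250 bases upstream of the annotated start of Irx1, Irx2 and Hhex are shown because Irx1 and Hhex had the 2 largest diet differences among the probe sets chosen to represent the genes (the other Dpp4 probe set, described with that gene, differed by slightly more than Hhex) and Irx2 is the neighbour and relative of Irx1. They were copied from RefSeq (build GRCr8) and are read 5′ to 3′ in the direction of transcription, with the letters GGGCGG (or CCGCCC on the other strand) and CCAAT (or ATTGG on the other strand) in capitals. The windows lie at chr1:33122872-33123121 (plus strand) for Irx1, chr1:32494931-32495180 (minus strand) for Irx2 and chr1:244602695-244602944 (plus strand) for Hhex.
Irx1: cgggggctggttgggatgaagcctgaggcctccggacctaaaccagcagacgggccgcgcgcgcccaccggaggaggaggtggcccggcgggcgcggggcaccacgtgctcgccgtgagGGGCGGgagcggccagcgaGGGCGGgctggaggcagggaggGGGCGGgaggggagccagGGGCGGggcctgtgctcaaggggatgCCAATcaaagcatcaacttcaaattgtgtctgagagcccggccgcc
Irx2: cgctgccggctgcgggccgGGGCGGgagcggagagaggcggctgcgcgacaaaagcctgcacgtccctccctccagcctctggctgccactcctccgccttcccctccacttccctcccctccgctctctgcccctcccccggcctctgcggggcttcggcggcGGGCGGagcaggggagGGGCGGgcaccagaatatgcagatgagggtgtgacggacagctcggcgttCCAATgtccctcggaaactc
Hhex: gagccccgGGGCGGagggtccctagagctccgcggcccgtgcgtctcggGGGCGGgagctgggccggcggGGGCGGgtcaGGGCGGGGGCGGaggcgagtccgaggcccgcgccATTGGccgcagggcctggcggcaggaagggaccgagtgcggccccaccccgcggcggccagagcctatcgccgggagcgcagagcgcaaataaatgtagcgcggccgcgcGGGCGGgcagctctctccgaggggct

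All 7 genes matched an entry of the RefSeq promoter table. Irx1 held 4 matches to GGGCGG, Irx2 held 3 and Hhex held 6, and the other 4 genes held 0. Some match to GGGCGG on either strand was present in 30.5% of 33469 upstream windows of the same length. A match to CCAAT on either strand was present in 6 of the 7 genes, all but Slc38a5, and in 34.0% of all windows. The letters TATAAA (12.9% of all windows, either strand) and the palindrome TAATTA (4.86% of all windows) occurred in 0 of the 7. The share of G and C was 72.8% in Irx1, 71.6% in Irx2 and 78.4% in Hhex, against a median of 51.2% over all windows, and was lowest of the 7 in Slc38a5, at 47.2%. In these windows no match to GGGCGG overlapped a match to CCAAT. Irx1 and Irx2 lie on chromosome 1 of that build with 5 annotated RefSeq genes between them, of which 0 are protein-coding. These matches are descriptions of letters and were not related to the expression values.

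The expression values are log2 RMA values as the authors deposited them. They have no detection call, a difference of 1 means a 2-fold difference, and the values of different probe sets are not compared with each other as levels. Every difference is cafeteria minus lean on the log2 scale, with the moderated standard error (SE) of limma and a p adjusted over all 31042 tested probe sets. Islet hormone signal was strong on all arrays, with Gcg (glucagon) between 13.44 and 13.77, Sst (somatostatin) between 12.32 and 13.26 and Ppy (pancreatic polypeptide) between 12.54 and 13.32, where the highest value in the table was 14.24. Some arrays stood apart in markers of other cells, given as the mean deviation of a marker list from its 9-array mean. The acinar score was -0.95 in cafeteria replicate 5 and 0.25 to 0.64 in the other cafeteria samples, against -0.69 to 0.15 in lean samples. The immune score was -0.36 to -0.0880 in cafeteria samples, against 1.15 in lean replicate 3 and -0.0686 to 0.13 in the other lean samples. The ductal score was -0.22 to -0.0515 in cafeteria samples, against 0.99 in lean replicate 1 and -0.37 to 0.20 in the other lean samples.

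None of the 6 measured identity genes passed the test. By limma 0 of 6 reached an adjusted p of 0.05, where 0.00% of 14217 genes (0 genes) did so, and the smallest adjusted p of any probe set was 0.844. At an unadjusted p under 0.05 there was 1 of 6, Irx1, which was lower in cafeteria samples, where 6.70% of all genes had such a p and 3.28% had it with a lower value. In 0 of 6 were the groups free of overlap, against 2.17% of all genes (308 genes). The mean was lower in cafeteria islets in 5 of 6, with a median difference of -0.0473, against 49.2% of all genes and a median of 0.0025. Of these 5, Irx2, Pou3f4 and Dpp4 changed sign when some single arrays were left out. The other probe set of Irx1 had the opposite sign, so the count shows no shared decline. In these bulk samples, fewer cells of a type and less RNA per cell cannot be told apart.

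**Figure D1:**
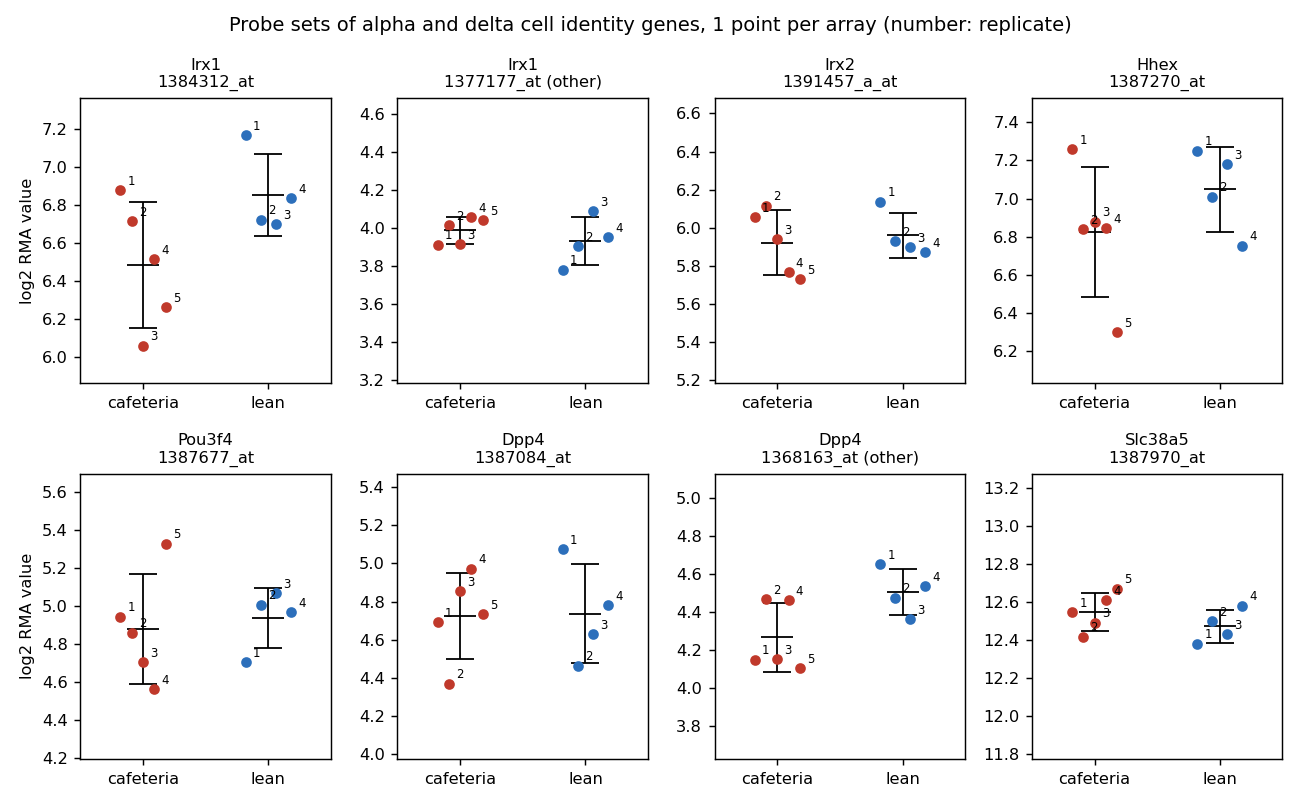
Log2 RMA values of the 8 probe sets, 1 point per array labelled with its replicate number, cafeteria left (n = 5) and lean right (n = 4), with the mean and SD as bars; each panel spans the same height of log2 units around its own centre. The groups overlap in all 8 panels, and cafeteria replicate 3 is lowest in the first panel of Irx1, at 6.06.

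Irx1, an Iroquois homeodomain transcription factor, showed the largest difference of the set. Its values (probe set 1384312_at) in cafeteria samples were 6.88, 6.72, 6.06, 6.51 and 6.26, against 7.17, 6.72, 6.70 and 6.83 in lean samples. Cafeteria replicates 3, 4 and 5 lay below every lean sample, and replicates 1 and 2 lay within the lean range. The mean was 6.49 ± 0.33 (SD, n = 5) in cafeteria samples and 6.86 ± 0.22 (SD, n = 4) in lean samples. The difference of -0.37 (SE 0.17) is a level 1.29-fold lower in cafeteria islets, with a 95% interval from -0.74 to just under 0. It did not hold over all probe sets (limma adjusted p = 0.844, unadjusted p = 0.04999), nor in a two-sided exact permutation test (p = 0.127, where the smallest possible p is 0.00794). The difference lay between -0.47 and -0.26 with single arrays left out. It was smallest without cafeteria replicate 3 (-0.262) and nearly as small without lean replicate 1 (-0.265). Over all genes, 320 (2.25%) were lower by at least as much.

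The other probe set of Irx1 gave the opposite sign. At 1377177_at the values in cafeteria samples were 3.91, 4.01, 3.91, 4.06 and 4.04, against 3.78, 3.90, 4.09 and 3.95 in lean samples, all below the array medians of 5.28 to 5.32. Its difference was 0.0570 (SE 0.0773, limma adjusted p = 0.919). All cafeteria samples lay within the lean range. Across the 9 arrays the 2 probe sets were not alike (Pearson r = -0.45, Spearman rho = -0.62, as a description), so the lower Irx1 signal rests on 1 probe set.

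Irx2, a second Iroquois factor, had values (1391457_a_at) of 6.05, 6.12, 5.94, 5.76 and 5.73 in cafeteria samples, against 6.14, 5.93, 5.90 and 5.87 in lean samples. Lean replicate 1 was the highest array, cafeteria replicate 2 came next, and cafeteria replicates 4 and 5 were the 2 lowest. The difference was -0.0380 (SE 0.10, limma adjusted p = 0.964), with a 95% interval from -0.26 to 0.18. Its sign turned without cafeteria replicate 4 (0.0010) or 5 (0.0102) or lean replicate 1 (0.0212), so no direction is given.

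Pou3f4, a POU domain transcription factor, had values (1387677_at) of 4.94, 4.86, 4.70, 4.56 and 5.33 in cafeteria samples, against 4.70, 5.01, 5.07 and 4.97 in lean samples. The cafeteria samples held both the highest array, replicate 5, and the lowest, replicate 4, and the value was above the array median on 1 of the 9 arrays. The mean was 4.88 ± 0.29 (SD, n = 5) in cafeteria samples and 4.94 ± 0.16 (SD, n = 4) in lean samples. The difference was -0.0566 (SE 0.14, limma adjusted p = 0.963), with a 95% interval from -0.37 to 0.26, and its sign turned without cafeteria replicate 4 (0.0224).

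Among the membrane proteins, the amino acid transporter gene Slc38a5 was the steadiest gene of the set. Its values (1387970_at) were 12.55, 12.42, 12.49, 12.61 and 12.67 in cafeteria samples, against 12.38, 12.50, 12.43 and 12.58 in lean samples. Cafeteria replicates 4 and 5 lay above every lean sample and the other 3 lay within the lean range. The difference was 0.0738 (SE 0.0756, limma adjusted p = 0.884; exact permutation p = 0.270), and its 95% interval from -0.0936 to 0.24 bounds any diet difference of this signal more tightly than those of the other 5 genes. It was the only gene of the 6 with a higher mean in cafeteria samples. The difference stayed positive with each single array left out, between 0.0426 (without lean replicate 1) and 0.11, and was 0.0430 without cafeteria replicate 5. It was 0.12 with the acinar score in the fit, 0.0580 with the immune score and 0.0676 with an RNA quality measure. The SD of Slc38a5 within groups, 0.0939, was lower than that of 85.0% of all genes. Its values lie near the top of the scale, where the highest value was 14.24, and whether that narrows its spread was not tested.

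Dpp4, the incretin-degrading protease, has 2 probe sets with different answers. At the brighter one, 1387084_at, values were 4.69, 4.37, 4.85, 4.97 and 4.73 in cafeteria samples, against 5.08, 4.46, 4.63 and 4.78 in lean samples. The groups overlapped, with cafeteria replicate 2 the lowest array and lean replicate 1 the highest, and the difference was -0.0132 (SE 0.14, limma adjusted p = 0.992), with a 95% interval from -0.33 to 0.30 and a sign that turned without cafeteria replicate 2 (0.0755) or lean replicate 1 (0.10) or 4 (0.0010). At the other, 1368163_at, values were 4.15, 4.47, 4.15, 4.46 and 4.11 in cafeteria samples, against 4.65, 4.48, 4.36 and 4.54 in lean samples. Here cafeteria replicates 1, 3 and 5 lay below every lean sample. The difference was -0.24 (SE 0.10), at an unadjusted p of 0.0403, a limma adjusted p of 0.844 and an exact permutation p of 0.0794. Both probe sets were below the array medians on all 9 arrays, and their Pearson r across arrays was 0.13 (Spearman rho = 0.17).

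Hhex, the homeodomain factor of delta cells, had the second largest difference of the chosen probe sets. Its values (1387270_at) were 7.26, 6.84, 6.88, 6.85 and 6.30 in cafeteria samples, against 7.25, 7.01, 7.18 and 6.75 in lean samples. Cafeteria replicate 1 was the highest array and cafeteria replicate 5 the lowest, and the middle 3 cafeteria samples lay close together. The mean was 6.82 ± 0.34 (SD, n = 5) in cafeteria samples and 7.05 ± 0.22 (SD, n = 4) in lean samples. The difference was -0.22 (SE 0.17, 95% interval -0.61 to 0.16), a level 1.17-fold lower in cafeteria islets, and was smaller than the spread between arrays (limma adjusted p = 0.859; exact permutation p = 0.325). Without cafeteria replicate 5 it was -0.0931. That array also had the lowest acinar score, and in a fit that includes the acinar score the difference was -0.43 (SE 0.13, unadjusted p = 0.0080, limma adjusted p = 0.904). It was -0.20 with the immune score (limma unadjusted p = 0.433) and -0.25 with an RNA quality measure (limma unadjusted p = 0.167). How far the fit with the acinar score rests on cafeteria replicate 5 was not tested. That fit therefore does not give the part of acinar content in the Hhex difference.

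**Figure D2:**
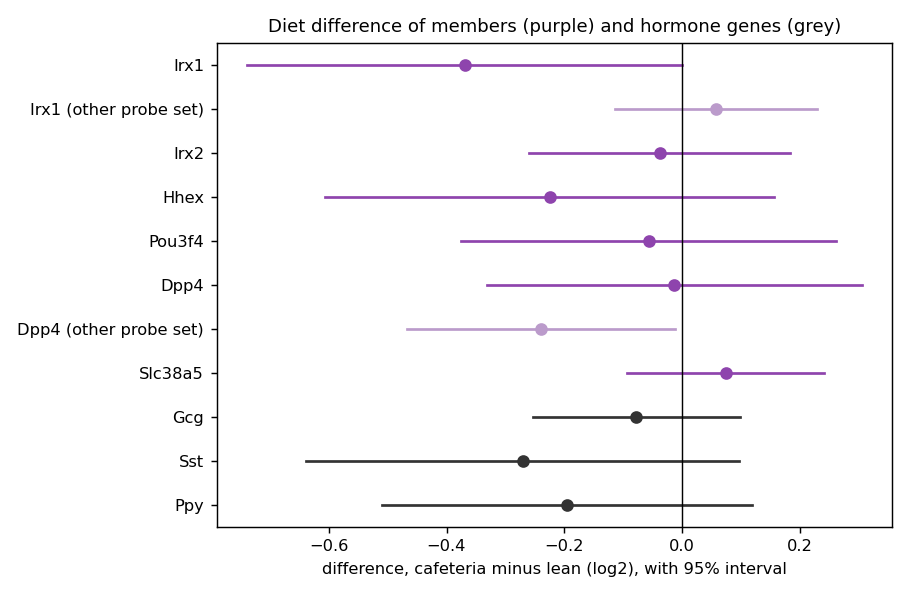
Differences (cafeteria minus lean, log2) with 95% intervals from limma for the chosen probe sets (dark purple), the other probe sets of Irx1 and Dpp4 (light purple) and 3 hormone genes (grey). The interval of Irx1 reaches from -0.74 to just under 0, and that of Slc38a5 is the narrowest of the chosen probe sets, from -0.0936 to 0.24.

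The acinar score, the immune score and an RNA quality measure were put into the fit one at a time. The immune scores of the groups did not overlap (-0.36 to -0.0880 in cafeteria, -0.0686 to 1.15 in lean samples). Fits with that score therefore separate diet from immune content poorly, for every gene. The diet difference of Irx1 was -0.45 (SE 0.18) with the acinar score and -0.51 (SE 0.22) with the immune score, against -0.37 (SE 0.17) without a score. It was -0.40 (SE 0.16) with the 3-prime to 5-prime difference of the actin and Gapdh control probe sets, an indicator of RNA quality. It was -0.29 with arrays weighted by quality and -0.16 for the mean of both Irx1 probe sets. Of the acinar markers 19 of 20 measured had a higher mean in cafeteria samples, and of the immune markers 17 of 17 a lower one. Of the endothelial markers 9 of 11 had a lower mean, of the ductal markers 8 of 10, of the stellate markers 5 of 11 and of the Schwann markers 3 of 5, and the part of these 4 lists in the diet differences was not tested. The difference of Pou3f4 turned to 0.12 with the acinar score and to 0.0654 with the immune score.

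**Figure D3:**
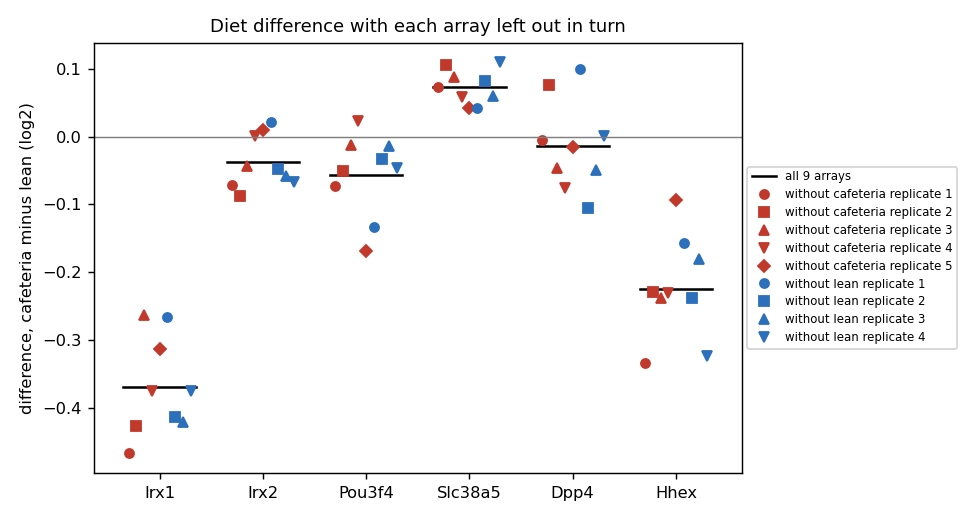
Diet difference (log2, cafeteria minus lean) of the 6 genes with all 9 arrays (black line) and with each array left out (red for cafeteria, blue for lean). Irx1 and Hhex stay below 0 in all 9 cases and Slc38a5 above 0, whereas Irx2, Pou3f4 and Dpp4 cross 0.

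Other genes that mark the same cells were listed beside the set, and 0 of them passed the limma test over all probe sets. Of 15 listed alpha cell genes 12 were measured, 8 with a lower and 4 with a higher mean in cafeteria samples, and their median difference was -0.0763. Rgs4, a regulator of G protein signalling, had the smallest p of these, with a difference of -0.38 (SE 0.09, limma adjusted p = 0.844), and was the only one of the 12 whose groups did not overlap, where 0.837% of all genes were lower without overlap. Its values lay between 9.47 and 9.91 in cafeteria samples, against 9.92 to 10.15 in lean samples, and its other probe set had a difference of -0.63, with overlap between the groups because cafeteria replicate 1 (8.95) lay above 2 lean samples (8.74 and 8.73). Cryba2, a crystallin gene of alpha cells in human islets, differed by -0.26 (SE 0.13). Gcg differed by -0.0777 (SE 0.0793), by -0.13 without cafeteria replicate 1, by -0.0508 without cafeteria replicate 3, by -0.0445 without cafeteria replicate 5 and by -0.13 with the acinar score in the fit.

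Of 11 listed delta cell genes 7 were measured, 3 with a lower and 4 with a higher mean, and their median difference was 0.0047. Rbp4, a retinol carrier found in delta cells, averaged 7.49 ± 0.36 (SD, n = 5) in cafeteria samples and 7.96 ± 0.12 (SD, n = 4) in lean samples, a difference of -0.47 (SE 0.17, limma adjusted p = 0.844). Lepr, the leptin receptor, differed by 0.15 (SE 0.0839) at a probe set below the array median on all 9 arrays, and by 0.0473 for the mean of its probe sets. Sst differed by -0.27 (SE 0.17), and by -0.13 without cafeteria replicate 3.

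Of 11 listed genes of PP and epsilon cells 10 were measured, 7 with a lower and 3 with a higher mean, and their median difference was -0.18. The smallest p belonged to Aqp3, a water channel, at 0.26 (SE 0.12), and to Id2, an inhibitor of helix-loop-helix factors, at -0.49 (SE 0.24). Both had a limma adjusted p of 0.844. The values of Aqp3 were dim, between 3.52 and 4.22, and lay below the array medians of 5.28 to 5.32 on every array. Without lean replicate 1 Id2 differed by -0.26. Ppy differed by -0.20 (SE 0.14), and by -0.0975 without cafeteria replicate 3. For comparison, 13 measured beta cell genes had a median difference of 0.0076, with 6 lower and 7 higher, and ran from -0.27 (Glp1r) to 0.18 (Ero1b). The 10 measured genes of all endocrine cells had a median of -0.0264, with 6 lower and 4 higher, and ran from -0.49 (Isl1) to 0.21 (Chgb). These counts are descriptions, and the differences between the lists were not tested.

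The array with the highest value differed from gene to gene. Lean replicate 1 had the highest value of 3 of the 6 genes, Irx1, Irx2 and Dpp4, and the lowest of Slc38a5. Cafeteria replicate 5 had the lowest value of Irx2 and Hhex and the highest of Pou3f4 and Slc38a5. Cafeteria replicate 3 was far below the 9-array mean in Irx1 (-0.59) but close to it in Hhex (-0.0456), and it was lowest of all arrays in Sst (-0.69). Within groups Irx1 and Hhex varied most, with SDs of 0.29 and 0.30, higher than those of 90.4% and 91.3% of all genes, where the median gene had 0.15.

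**Figure D4:**
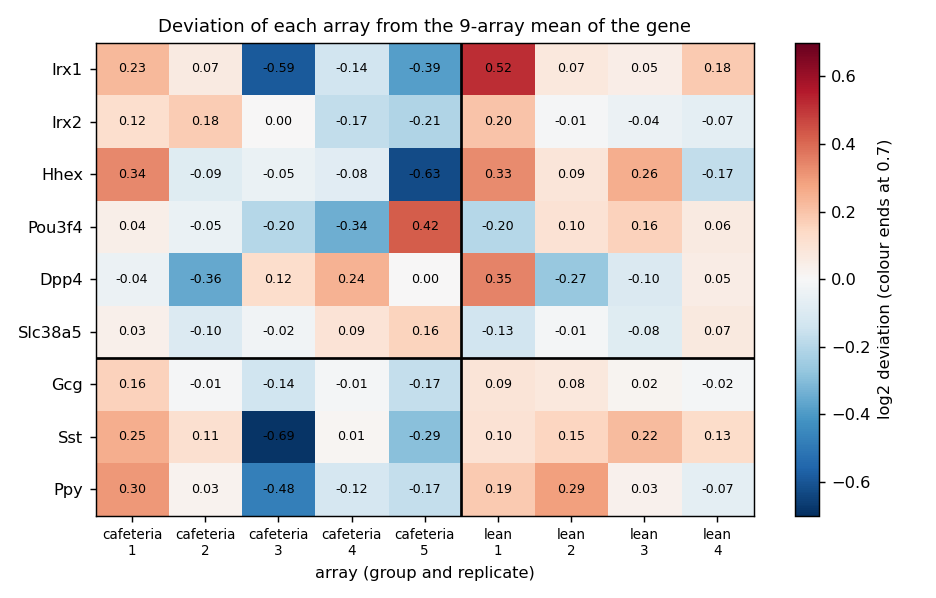
Log2 deviation of each array (columns, cafeteria left and lean right of the line) from the 9-array mean of each identity gene (upper rows) and hormone gene (lower rows). Cafeteria replicate 3 is low in Irx1 (-0.59) and Sst (-0.69), and cafeteria replicate 5 is low in Hhex (-0.63) and high in Pou3f4 (0.42).

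Relations among the 6 genes and with Gcg, Sst and Ppy were computed over the 9 arrays, 33 in all, with exact permutation of the pairings. Each gene was taken from its chosen probe set. For Irx1 this was 1384312_at, and its other probe set did not follow it across arrays (r = -0.45). At an unadjusted p under 0.05 there were 7, and 0 passed an adjusted p of 0.05 by Pearson or Spearman, the smallest being 0.0542 by Pearson and 0.1002 by Spearman. Irx1 and Gcg had r = 0.85 (exact permutation p = 0.0050, adjusted p = 0.0542) and rho = 0.78 (exact permutation p = 0.0172, adjusted p = 0.142). With the group means removed, r was 0.83, and it was 0.92 within the 5 cafeteria samples and 0.48 within the 4 lean samples. Without the 2 arrays farthest from the median of Irx1, cafeteria replicates 3 and 5, it was 0.56.

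Irx1 and Sst had r = 0.84 (exact permutation p = 0.0043, adjusted p = 0.0542) and rho = 0.63 (exact permutation p = 0.0760, adjusted p = 0.354). Without cafeteria replicates 3 and 5, r was 0.24. Leaving out these 2 arrays also narrows the range of Irx1, which by itself tends to lower r. With single arrays left out, r was 0.71 (without cafeteria replicate 3) to 0.96. Within the cafeteria samples r was 0.97, but it was -0.78 within the lean samples. With Ppy, Irx1 had r = 0.82 (exact permutation p = 0.0069, adjusted p = 0.0542), rho = 0.82 (exact permutation p = 0.0108, adjusted p = 0.118) and r = 0.50 without the same 2 arrays. Within groups its r with Ppy was 0.96 in cafeteria samples and 0.16 in lean samples.

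Hhex had a higher r with Gcg than with Sst, the hormone of the cells it marks. Its r with Gcg was 0.83 (exact permutation p = 0.0051, adjusted p = 0.0542) and rho was 0.87 (exact permutation p = 0.0045, adjusted p = 0.1002). With Sst r was 0.51 (exact permutation p = 0.172, adjusted p = 0.453) and rho was 0.53 (exact permutation p = 0.148, adjusted p = 0.356), and the difference between these relations was not tested. Without the 2 farthest arrays, cafeteria replicates 1 and 5, Hhex had r = 0.61 with Gcg and 0.28 with Sst. Within groups its r with Gcg was 0.84 in cafeteria samples and 0.70 in lean samples.

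Irx2 and Slc38a5 had a negative relation, with r = -0.82 (exact permutation p = 0.0082, adjusted p = 0.0542) and rho = -0.85 (exact permutation p = 0.0061, adjusted p = 0.1002). The sign was the same in both groups, at -0.88 within cafeteria samples and -0.77 within lean samples, and r was -0.61 without lean replicate 1 and cafeteria replicate 5. The neighbours Irx1 and Irx2 had r = 0.60 (exact permutation p = 0.0840, adjusted p = 0.292) and rho = 0.55 (exact permutation p = 0.133, adjusted p = 0.356), with r = 0.56 within cafeteria samples, 0.90 within lean samples and 0.72 without cafeteria replicates 3 and 5. All arrays share 1 normalization, and Gcg, Sst, Ppy and Slc38a5 lie near the top of the scale.

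**Figure D5:**
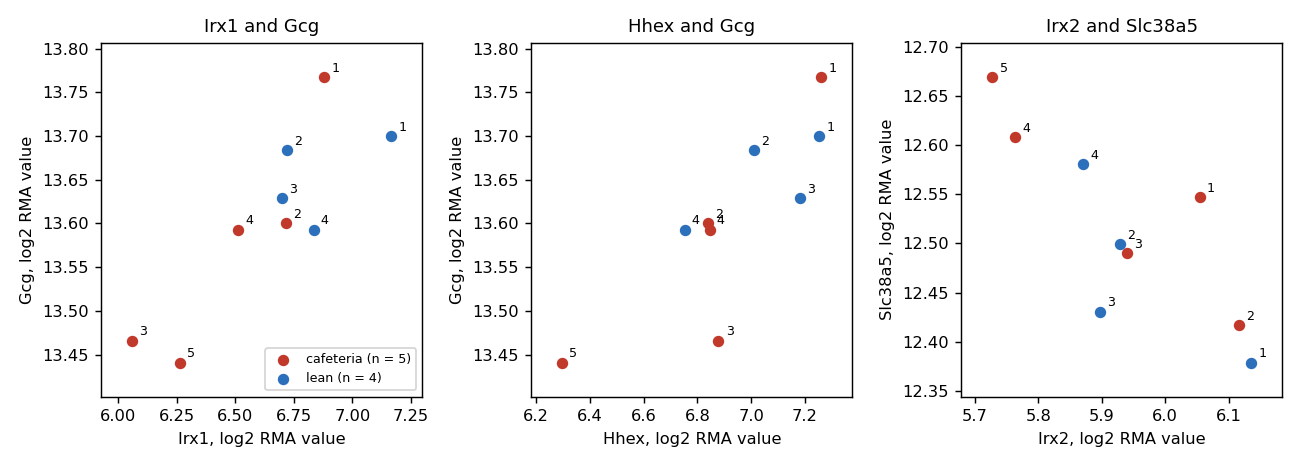
Log2 RMA values of 3 pairs of genes on the 9 arrays, 1 point per array with its replicate number (red cafeteria, n = 5; blue lean, n = 4). Irx1 and Hhex are plotted against Gcg (r = 0.85 and 0.83) and Irx2 against Slc38a5 (r = -0.82), and 0 of the 33 relations passed an adjusted p of 0.05.

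Of the 7106 other genes at or above the median gene in mean value, those most like each identity gene over the 9 arrays were named by the highest Pearson r, as a description. Irx1 was most like Pxn (0.97), which encodes the adhesion protein paxillin, and Ddx23 (0.97), an RNA helicase of the spliceosome. Irx2 was most like Vps39 (0.87) and Rgs16 (0.84), and Hhex most like Stau1 (0.94), an RNA-binding protein, and Adcy6 (0.92), an adenylyl cyclase. Pou3f4 was most like Spg21 (0.91) and C8h15orf39 (0.87), Dpp4 most like Sorl1 (0.89), a sorting receptor, and Crb3 (0.86), and Slc38a5 most like Wdr24 (0.88) and Ndufc1 (0.88), a subunit of respiratory complex I. None of these 12 genes passed the limma test for diet, with adjusted p between 0.844 and 0.984. Each was picked as one of the highest of 7106 values of r over 9 arrays.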

How the data were processed

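Islet RNA of 9 samples was measured on 1 array each. The deposited values are log2 RMA expression values per probe set, per the submitters' processing notes, which name RMA, R 2.7.0 and affy 2.0.1. RMA equalises the distributions of the arrays, so a shift shared by most genes would be removed. Of 31099 probe sets, 57 controls were dropped. Single-gene probe sets (20826) were named by the platform annotation, and the brightest on average represented its gene; 20758 of them were found in RefSeq by gene identifier and 0 symbols differed.

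Groups were compared by lmFit and eBayes of limma 3.58.1 under R 4.3.3, without covariates, two-sided, with Benjamini-Hochberg adjustment over 31042 probe sets and a threshold of 0.05. As a check of the code only, the same fit was run on simulated data with independent noise and planted differences. With 9 arrays the precision is limited, and the median 95% interval over genes reached 0.217 log2 (1.16-fold) to either side. Exact permutation tests used all 126 splits into 5 and 4, and correlations all 362880 pairings, adjusted over 33 relations in place of the planned 42 because no single-gene probe set was found for Peg3 (scipy 1.17.1 and numpy 2.4.6 under Python 3.11.15). The identity genes and the 11 gene lists beside them (151 entries) were chosen with earlier results of these data known. Named genes were the identity genes, Gcg, Sst, Ppy, the 2 genes with the smallest p of the alpha, delta, and PP and epsilon lists, and the 2 genes most like each identity gene. Alternatives were median centring, repeated quantile normalization, brighter probe sets only, robust variances with an intensity trend, weighting of arrays, 3 covariates, a looser threshold of 0.10, averaging or choosing otherwise among the probe sets of a gene, and leaving out each array.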

Additional observations from a re-analysis of the deposited data

Results flagged for a closer look

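Of 82 groups of values examined for a sample far from the others, 2 had one, where chance flags about 1 in 20 groups, and 0 of them were values of the identity genes. The acinar score of cafeteria replicate 5 was -0.95, with the nearest cafeteria sample at 0.25. The immune score of lean replicate 3 was 1.15, with the nearest lean sample at 0.13.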

How the results depend on the processing

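No paired analysis was possible because the labels give the samples of the 2 groups no shared replicate numbers. The number of probe sets at an adjusted p of 0.05 was 0 in all 18 alternatives, by limma, with a smallest adjusted p of 0.0578 (without lean replicate 2) and between 883 and 3413 probe sets at an unadjusted p under 0.05, against 1789 in the main test. The median difference of the identity genes lay between -0.13 and -0.0372 in 19 alternatives. The -0.13 came with brighter probe sets only, which leaves out Pou3f4 and Dpp4, and the next lowest was -0.11 with array weights. In alternatives added after seeing the data, the number of identity genes with an exact permutation p under 0.05 was 0 in 11, and the number of correlations past an adjusted p of 0.05 was 2 with repeated quantile normalization (Irx1 with Sst, r = 0.87, exact permutation adjusted p = 0.0240, and with Ppy, r = 0.94, adjusted p = 0.0049) and 0 with median centring. It was 0 to 1 with single arrays left out, namely Irx1 with Sst without lean replicate 1 (r = 0.96) and Irx2 with Slc38a5 without cafeteria replicate 1 (r = -0.91). The cause was not tested.

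The signs of Irx1 (20 alternatives, -0.51 to 0.0570) and Irx2, Pou3f4 and Dpp4 turned at least once, and those of Hhex (-0.43 to -0.0931) and Slc38a5 (0.0426 to 0.12) in 0 of 19 each. Irx1 turned with its other probe set (0.0570) and was -0.16 with the mean of both. Irx2 turned without cafeteria replicate 4 (0.0010) or 5 (0.0102) or lean replicate 1 (0.0212; range over single arrays left out -0.0869 to 0.0212). Pou3f4 turned with the acinar score (0.12), the immune score (0.0654) or without cafeteria replicate 4 (0.0224; range -0.17 to 0.0224). Dpp4 turned with the RNA quality covariate (6.6e-04) or array weights (0.0668), and without cafeteria replicate 2 (0.0755) or lean replicate 1 (0.10) or 4 (0.0010; range -0.10 to 0.10). Of the genes most like them, Vps39 turned without lean replicate 1 (range -0.0672 to 0.0027), Spg21 with the acinar (0.0101) or immune score (0.0288), Crb3 with the immune score (-0.0259) and Sorl1 without cafeteria replicate 3 (-0.0105) or 5 (-0.0025) or lean replicate 2 (range -0.0196 to 0.0556). With brighter probe sets only, Pou3f4 and Dpp4 were not tested, since their probe sets are dim.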
